A study of Homo sapiens with 12 samples.

Results

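The unnamed transcripts of chromosome 8 were the probe sets of a Clariom D Human array whose ID begins with TC08, the array's code for chromosome 8, and to which the platform annotation gives no gene symbol. There were 4529 of them among 5947 TC08 probe sets and 135750 probe sets in all. Every one was kept in every test, and the 465 whose signal averaged 6 or more on the log2 scale over the 12 arrays are called bright and were described apart. The bright ones were thus selected on their own mean signal, a working limit on dim values, so that a level above it is no finding. The limit cut through a continuous range, since TC0800009243 averaged 6.0 and TC0800009665 averaged 6.0083 just inside it, while TC0800007655 averaged 5.9992 and TC0800007019 averaged 5.99 just outside it. IDs are given here without the ending .hg.1 that all of them share.

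The arrays measured total RNA of MIO-M1, a human Müller glia cell line, in 4 groups of 3 biological replicates. The line MIO-M1-CTG(648) carried a DMPK minigene with 648 CTG repeats and the line MIO-M1-CTG(0) the same minigene with 0 repeats, and each was taken Dox-induced and non-induced. Induced cells had 1 μg/ml doxycycline (Dox) for 8 days and non-induced cells had none. All groups held the minigene under the Tet-responsive pTRE3G promoter and the Tet3G transactivator under a CMV promoter, and were selected with G418 and puromycin. Both lines were made from 1 clone of transactivator cells. Each repeat length was a single derived line, so that a p-value between lines measures the spread between cultures of these lines and does not cover variation between independently made lines. In bulk RNA, fewer cells making a transcript and less of it per cell cannot be told apart.

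A transcript without a symbol is one that the array's designers placed on the genome from sequence evidence but that the platform annotation links to no gene symbol. Such transcripts include long noncoding RNAs, RNAs made from the strand opposite a gene or from enhancers, pseudogene copies, and pieces of a longer primary transcript of a named gene. Their position is the best handle on them, because a transcript inside or beside a gene often shares its transcription. Myotonic dystrophy, which the study models, arises from an expanded repeat in the 3′ region of DMPK, the gene of a muscle protein kinase, whose RNA collects in nuclear foci.

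All 12 arrays had medians between 4.24 and 4.32. DMPK, the gene of the inserted minigene, averaged 9.72 in Dox-induced CTG(648) cells, 10.19 in non-induced CTG(648) cells, 8.54 in Dox-induced CTG(0) cells and 7.95 in non-induced CTG(0) cells. Its Dox effect was -0.47 in CTG(648) cells (limma, adjusted p = 0.591) and 0.59 in CTG(0) cells (adjusted p = 0.613). Whether its probes lie in the minigene's exons is not known here, so the value does not test the labels. Of 16 Müller glia markers, 9 averaged 6 or more in every group, GLUL, VIM and SOX9 among them, while RLBP1, AQP4, KCNJ10, GFAP and NES stayed below 6. None of the 5 photoreceptor markers, the 4 of retinal pigment epithelium and the 4 of endothelium reached 6 in any group. Of 5 neuronal markers RBPMS reached 6 in every group, of 5 microglial ones CSF1R did, and 8 of 8 fibroblast and pericyte markers did so in at least 1 group. Among the last, LUM averaged 7.44 in non-induced CTG(648) cells and 14.47 in non-induced CTG(0) cells. The summed log2 signal of those 8 markers per array lay between 79.9 and 82.1 in Dox-induced CTG(648) cells and between 97.3 and 101.2 in Dox-induced CTG(0) cells, and between 86.4 and 89.7 in non-induced CTG(648) cells and 96.5 and 98.6 in non-induced CTG(0) cells. Within the list LUM differed by -7.04 between the non-induced lines and ACTA2 by -2.04, but PDGFRA by 2.04 and COL1A2 by 0.44. The list's part in the results between lines was not tested.

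Most unnamed chromosome 8 transcripts were dim. Their mean signals had a median of 4.01, with quartiles of 3.41 and 4.84 and a range of 2.13 to 18.4. The 465 bright ones were 10.3% of the set, against 12.7% of unnamed probe sets on the other autosomes, 11.5% of those on chromosome 11 and 36.6% of TC08 probe sets with a symbol. A further 110 averaged below 6 over all arrays but reached 6 in at least 1 group, and the remaining 3954 reached 6 in no group mean. Among the bright ones 161 averaged 8 or more, 69 averaged 10 or more, 36 averaged 12 or more and 16 averaged 15 or more.

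The brightest members hardly varied between arrays. TC0800009005 averaged 18.4 and read 18.37 in Dox-induced CTG(648) cells, 18.42 in non-induced CTG(648) cells, 18.42 in Dox-induced CTG(0) cells and 18.39 in non-induced CTG(0) cells, with SDs from 0.03 to 0.06. TC0800008245 averaged 18.29, TC0800011397 averaged 18.26, TC0800010738 averaged 17.81 and TC0800007649 averaged 17.22, and none of these 5 differed by more than 0.17 in size in any of the 4 pairwise comparisons described below. TC0800010738 lies in ID order between SLCO5A1 and RN7SL675P, a pseudogene of the abundant 7SL RNA of the signal recognition particle, whose own probe set averaged 4.14. The spread within groups fell with brightness. The median SD was 0.32 for the 304 members of mean 6 to 8, 0.26 for the 92 of 8 to 10, 0.24 for the 33 of 10 to 12, 0.17 for the 20 of 12 to 15 and 0.11 for the 16 above. None of those 16 passed the threshold between lines.

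IDs followed position. Of 1372 TC08 probe sets with exactly 1 symbol, 1314 had a RefSeq gene on chromosome 8 (GRCh38), and ordered by ID their start positions formed 4 series, each running from the low to the high end of the chromosome. Spearman's rho between ID and start was 1.0 over 578 genes in the first series, 0.9997 over 618 in the second, 0.9997 over 60 in the third and 0.9998 over 58 in the fourth, as a description of the numbering. Between these genes, 4512 members had a named neighbour on both sides, and 13 had no place in a series. The first series held 2194 members, 197 of them bright, and the second 2223, 251 of them bright. Positions below are those intervals between neighbours. The strand and the ends of the members were not used here.

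The first question was whether the 2 lines differed before induction. A probe set was counted as changed where its log2 difference exceeded 0.5 in size at an unadjusted limma p under 0.005, the limit the study's methods give. Between non-induced CTG(648) and non-induced CTG(0) cells 79 of the 4529 members passed, 28 higher and 51 lower in CTG(648), which is 1.74% against 4.05% of all probe sets (2.0% higher, 2.05% lower) and 1.69% of all unnamed ones. With arrays centred on the bright unnamed probe sets, a choice made after seeing the data, 17 were higher and 56 lower. Of the 465 bright members 35 passed, 9 higher and 26 lower, which is 7.53% against 6.05% of the 12555 bright unnamed probe sets of all chromosomes. The split leaned to lower signals, at 5.59% lower and 1.94% higher, against 3.37% lower and 2.68% higher among all bright unnamed probe sets. In every one of the 35 the 3 arrays of one line lay wholly above the 3 of the other. A call at this limit nearly forces that with 3 arrays a group. It held as well for the 45, 3 and 4 bright calls of the other pairwise comparisons, and members were named on that condition. Groups that do not overlap thus add no support to a call. After Benjamini-Hochberg adjustment over all probe sets 21 bright members had an adjusted p under 0.05, beside 2.45% of all probe sets and 3.47% of the bright unnamed ones. Without replicate 1 of the non-induced CTG(0) cells 21 bright members passed the unadjusted limit instead of 35. The median difference of all bright members was -0.02, so that most of them did not move with the called ones.

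TC0800007893 had the lowest difference of the bright members. It read 5.3, 5.67 and 5.51 in non-induced CTG(648) cells, against 8.01, 8.3 and 8.29 in non-induced CTG(0) cells. The groups were far apart, with a difference of -2.71 ± 0.2 (SE; limma, adjusted p = 4.15e-06). In Dox-induced cells it read 5.01, 4.77 and 5.26 in CTG(648), against 6.64, 7.14 and 6.77 in CTG(0), a difference of -1.84 ± 0.2 (adjusted p = 0.000157). It closed a run of 3 consecutive members that were all lower, TC0800007891 (-1.17), TC0800007892 (-1.99) and TC0800007893. The run lies in ID order between RNA5SP269 (start 68695643), a pseudogene of 5S ribosomal RNA, and SULF1 (chromosome 8, 69466781 to 69660912, GRCh38). By ID number it is nearer to RNA5SP269, and its distance in bases is not known here. SULF1 encodes an enzyme that removes sulphate groups from heparan sulphate at the cell surface. SULF1 itself averaged 15.08 and differed by -1.63 between the non-induced lines (adjusted p = 8.25e-05) and by -1.88 between the Dox-induced lines (adjusted p = 2.6e-05). RNA5SP269 averaged 5.84 and differed by 0.65 without Dox (adjusted p = 0.293) and by 0.0 with it. The bright C8orf34 probe set, just before RNA5SP269 in ID order, differed by -0.96 without Dox and -0.64 with it. The other bright member of the interval, TC0800007894, averaged 14.05 and differed by -0.42 without Dox, which did not pass.

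A second run of lower members lay between NRG1-IT3, a transcript from an intron of the neuregulin gene (start 32440746), and MTND1P6, a mitochondrial pseudogene (start 33014081). TC0800007232 read 7.25, 7.51 and 7.06 in non-induced CTG(648) cells, against 8.55, 9.19 and 8.77 in non-induced CTG(0) cells. TC0800007233 read 6.36, 6.72 and 6.61 in non-induced CTG(648) cells, against 7.42, 8.1 and 8.21 in non-induced CTG(0) cells. Neither pair of groups overlapped, and the differences were -1.56 ± 0.33 (adjusted p = 0.0213) and -1.35 ± 0.23 (adjusted p = 0.00472). The dimmer TC0800007231 of this run differed by -1.24 (adjusted p = 0.117), and its unadjusted call was lost in 7 of the 12 fits that left out 1 array, over which the difference lay between -1.38 and -1.04. The flanking probe sets, both dim, averaged 3.79 and 3.08 and gave no level to compare with. Bright named probe sets lay further off in the same ID series. Before the run, NRG1 differed by -1.74 without Dox and -0.54 with it, and RNA5SP263 by -0.12 and -0.88. After the run, MAK16 differed by -1.41 and -0.92. Whether the run belongs to any of these genes was not tested.

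The other named lower members were outside such runs of 3, although TC0800010946 and TC0800012438 each had a lower member next to them. TC0800008457, between ODF1 and the pseudogene NPM1P52, read 7.02, 7.25 and 6.65 in non-induced CTG(648) cells, against 8.41, 8.23 and 8.59 in non-induced CTG(0) cells, a difference of -1.44 ± 0.22 (adjusted p = 0.00276). TC0800012438 had a gene on 1 side in ID order that was lower in the same line, and TC0800010946 had such a gene on each side. TC0800012438 read 5.88, 5.99 and 5.72 in non-induced CTG(648) cells, against 7.13, 7.09 and 7.43 in non-induced CTG(0) cells, a difference of -1.35 ± 0.22 (adjusted p = 0.00327). The gene before it, ZFAND1 (start 81701331), a zinc-finger protein that helps clear stress granules, differed by -0.93 (adjusted p = 0.00569), and TC0800012437, between them in ID order, by -1.22 (adjusted p = 0.00699). The named probe set after TC0800012438, LINC01030 (start 90592775), averaged 4.16 and differed by -0.13 (limma, adjusted p = 0.92). That interval is wide, so its distance from ZFAND1 is not known here. TC0800010946 differed by -1.29 ± 0.19 (adjusted p = 0.00202), its neighbour TC0800010947 by -1.1 (adjusted p = 0.0413), and the next gene, SNX16 (start 81799583), a sorting nexin of endosomes, by -1.08 (adjusted p = 0.00467). SLC10A5 (start 81693631), just before TC0800010946 in ID order, averaged 7.07 and differed by -1.21 (limma, adjusted p = 0.0208). TC0800007024, which precedes SLC25A37, the gene of a mitochondrial iron importer, differed by -1.33 ± 0.29 (adjusted p = 0.0246), SLC25A37 by -1.25 (adjusted p = 0.00634) and R3HCC1 on the other side by -0.82 (adjusted p = 0.114). The difference of TC0800010814, -1.44 ± 0.36, missed the adjusted limit (adjusted p = 0.0554), and its call was lost without replicate 2 or 3 of the non-induced CTG(648) cells or replicate 1 of the non-induced CTG(0) cells, with values between -1.88 and -1.08 over the 12 fits.

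Of the 9 bright members that were higher in CTG(648), 7 were placed above 110 Mb. The largest differences formed a run of 3 bright members between FBXO32 (start 123497889), which encodes a substrate-binding subunit of a muscle ubiquitin ligase, and KLHL38 (start 123644442). TC0800011685 read 9.23, 8.1 and 8.5 in non-induced CTG(648) cells, against 6.17, 6.59 and 6.26 in non-induced CTG(0) cells, and the groups did not overlap. Its difference was 2.27 ± 0.29 (adjusted p = 0.000567). TC0800011686 differed by 1.94 ± 0.34 (adjusted p = 0.00665) and TC0800011684 by 1.89 ± 0.34 (adjusted p = 0.00771). FBXO32 itself averaged 14.88 and was also higher, by 1.19 ± 0.16 (adjusted p = 0.000806), while KLHL38 averaged 4.35 and differed by 0.05 (adjusted p = 0.977). Between the Dox-induced lines TC0800011684 differed by 0.9, TC0800011685 by 0.86 and TC0800011686 by 0.43. None of the 3 passed there (limma, adjusted p = 0.248, 0.179 and 0.67), and FBXO32 differed by 0.36 (adjusted p = 0.354).

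A second cluster lay between TRPS1 (start 115408496), the gene of a GATA-type transcriptional repressor, and the noncoding LINC00536 (start 115950511). It was singled out after its values were seen, and its members may be pieces of 1 transcript. It held 18 members, 12 of them bright, and all 12 had a positive difference between the non-induced lines, from 0.25 to 1.03 with a median of 0.66. Only TC0800011547 (0.96), TC0800011543 (0.93) and TC0800011550 (0.87) passed the unadjusted limit among the bright ones, with adjusted p of 0.103, 0.114 and 0.106, and each call was lost in 6 to 8 of the 12 fits without 1 array. The differences lay between 0.67 and 1.23 over those fits. The dimmer TC0800011548 read 7.01, 6.47 and 7.18 in non-induced CTG(648) cells, against 5.06, 5.03 and 5.86 in non-induced CTG(0) cells, a difference of 1.57 ± 0.34 (adjusted p = 0.0232). The 2 TRPS1 probe sets differed by 0.2 (adjusted p = 0.802) and 0.55 (adjusted p = 0.389). Between the Dox-induced lines the 12 bright members had a median of 0.07, 7 of them above 0, and none passed. TC0800011636 (0.83, adjusted p = 0.0935), beside SNTB1, and TC0800010682 (0.87, adjusted p = 0.1), between CRH and RRS1-DT, were the other named higher members, and their calls were lost in 5 and 6 of the 12 fits, with values between 0.66 and 1.02.

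**Figure D1:**
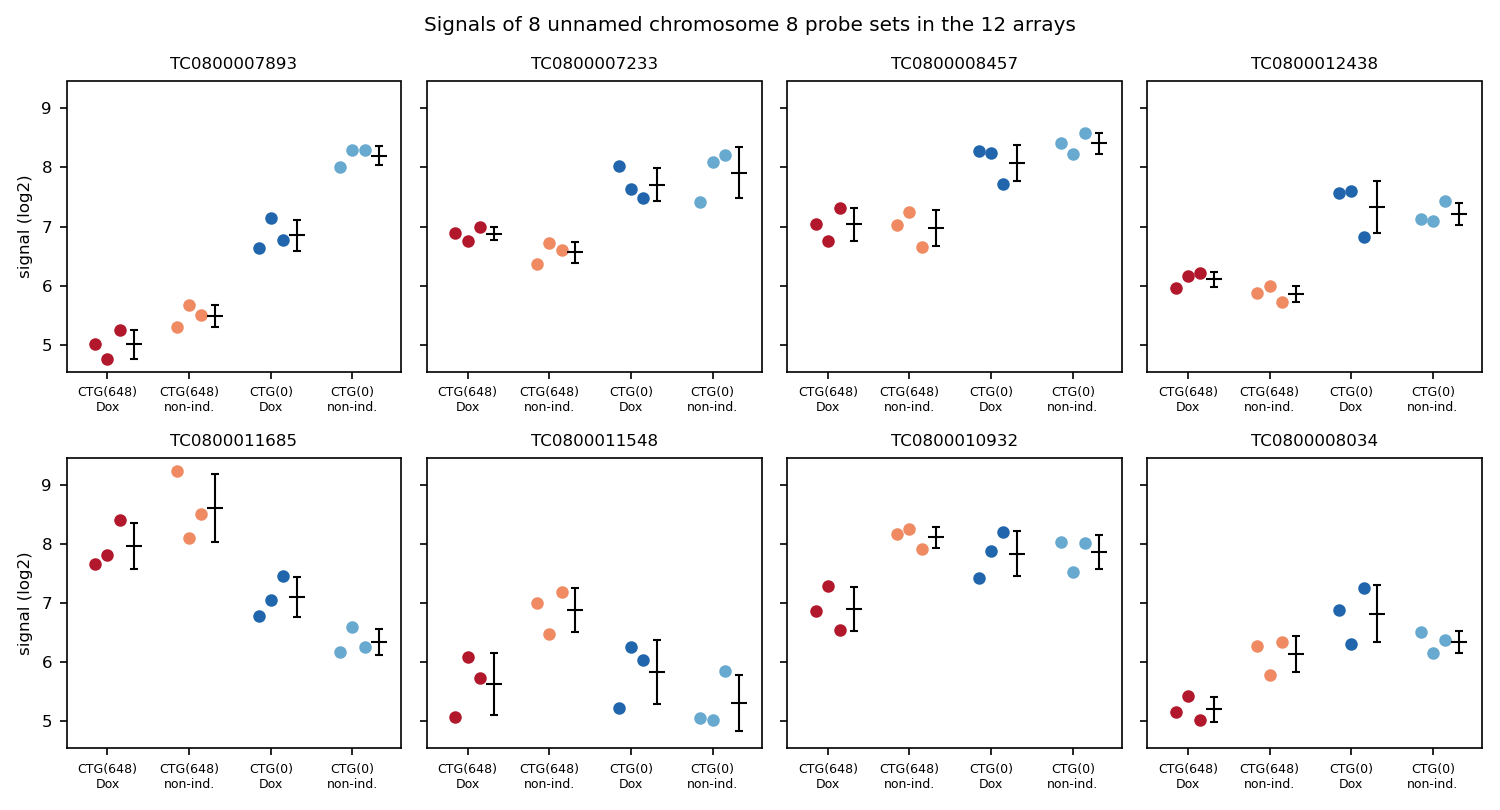
Signal (log2) of 8 unnamed chromosome 8 probe sets in each of the 12 arrays, by group, with 3 points a group and the mean ± SD beside them. The first 4 panels show members that were lower in CTG(648) cells with and without Dox, and the last 2 show members that fell in Dox-induced CTG(648) cells, with TC0800010932 at 6.87, 7.29 and 6.54 there.

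Among the 4064 members below the limit of 6 over all arrays, 44 passed between the non-induced lines. That is 1.08%, against 4.05% of all probe sets and 1.69% of all unnamed ones, bright ones included. Of the 110 that reached 6 in only some groups 11 passed, 7 lower and 4 higher in CTG(648), and of the 3954 that never reached 6 in a group mean 33 passed. In the 110 the limit itself favours members that differ between groups, so that this count is a description. TC0800007892, in the run between RNA5SP269 and SULF1, and TC0800011468, between TMEM74 and NUDCD1, had the lowest differences, at -1.99 ± 0.33 (adjusted p = 0.00429) and -1.8 ± 0.32 (adjusted p = 0.00737). TC0800010308 followed with -1.43 ± 0.43, which did not pass (adjusted p = 0.127). On the higher side TC0800009577 read 6.72, 6.25 and 6.08 in non-induced CTG(648) cells, against 5.31, 5.27 and 4.83 in non-induced CTG(0) cells, and TC0800012292 read 6.27, 6.24 and 6.08, against 5.43, 4.78 and 5.19. Their differences were 1.21 ± 0.24 (adjusted p = 0.0132) and 1.06 ± 0.2 (adjusted p = 0.00939). TC0800012292 lay in ID order between UBXN8 (start 30729135) and SMIM19 (start 42541148), which both differed the other way, by -0.77 and -0.88. This interval is wide, so neither gene need be close to it.

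The Dox-induced lines share no array with the non-induced ones, so that they repeat the comparison in separate cultures of the same 2 lines. Both comparisons come from 1 fit with 1 estimate of the spread per probe set, so passing in both is not fully independent. Between Dox-induced CTG(648) and Dox-induced CTG(0) cells 109 members passed, 28 higher and 81 lower, which is 2.41% against 4.35% of all probe sets (2.16% higher, 2.19% lower). Centred on the bright unnamed probe sets, 46 were higher and 61 lower. Of the bright members 45 passed, 5 higher and 40 lower, which is 9.68% against 6.71% of all bright unnamed probe sets. An adjusted p under 0.05 was reached by 27 bright members, beside 2.64% of all probe sets and 3.8% of the bright unnamed ones. By direction 8.60% were lower and 1.08% higher, against 4.44% and 2.28% of all bright unnamed probe sets. The median of all bright members was -0.12, beside -0.09 for all bright unnamed probe sets. The counts passing without 1 array ran from 30 to 47 bright members.

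Most bright lower members passed again, and none of the bright higher ones did. Among all members, 28 of the 51 lower ones and 3 of the 28 higher ones passed again in the same direction. Of all 4529 members, 1.79% passed as lower and 0.618% as higher between the Dox-induced lines. All 26 bright members that were lower between the non-induced lines were below 0 between the Dox-induced lines too, and 20 of them passed there, with medians of -1.09 between the non-induced lines and -0.85 between the Dox-induced lines. Among all bright members 64.9% were below 0 between the Dox-induced lines. Of the 9 higher ones 7 were above 0 between the Dox-induced lines, where 35.1% of all bright members were, and 0 passed by limma at the unadjusted p of 0.005, with medians of 0.93 and 0.15. The 20 that passed in both had differences from -2.71 to -0.59 without Dox and from -1.84 to -0.67 with it. Read the other way, 34 of the 40 members that were lower between the Dox-induced lines were also below 0 between the non-induced lines. Over the 465 bright members the differences of the 2 comparisons had a Pearson correlation of 0.55 and a Spearman correlation of 0.41, beside 0.57 and 0.38 over 12090 bright unnamed probe sets of other chromosomes and 0.78 and 0.74 over 519 bright TC08 probe sets with a symbol. The points of such a correlation share their arrays and, in part, their genes.

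**Figure D2:**
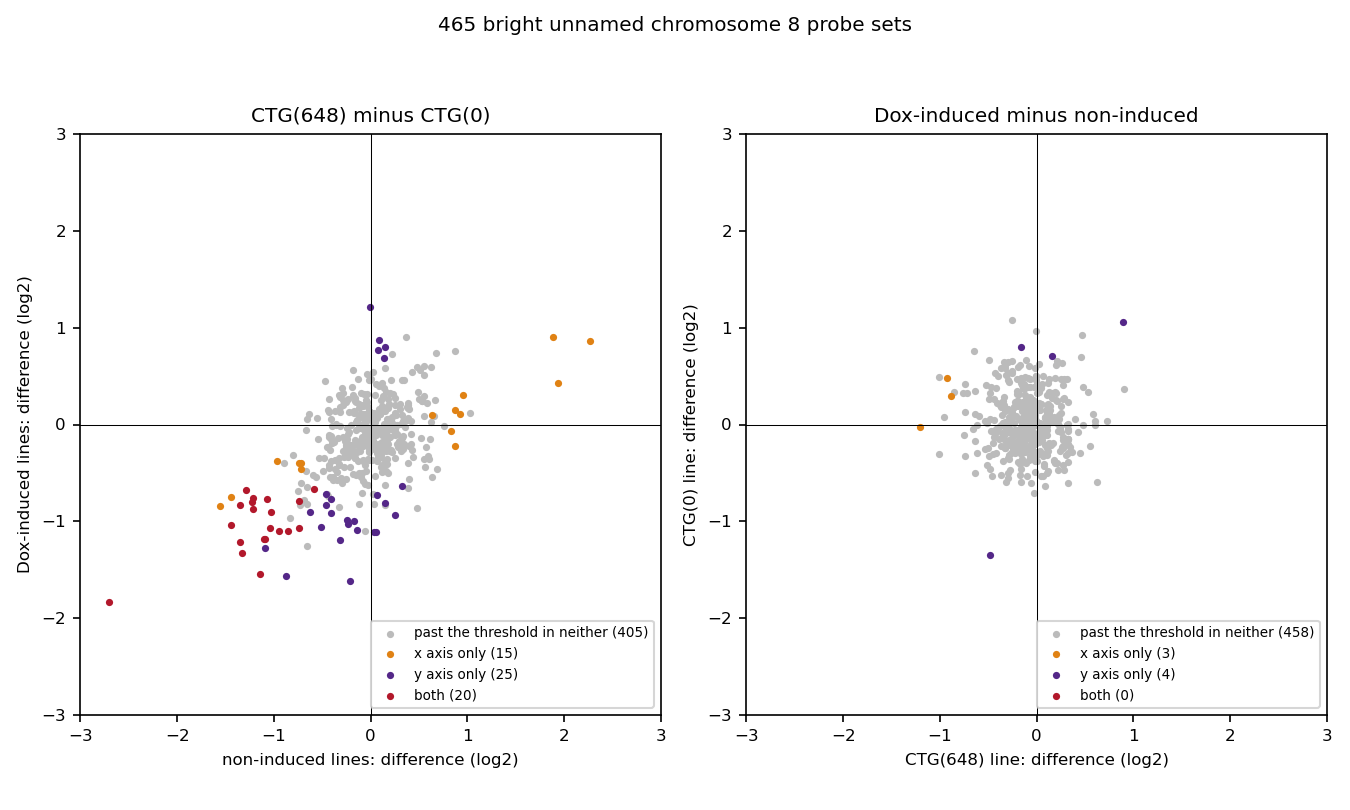
Each point is 1 of the 465 bright members, placed by its log2 difference in 2 comparisons that share no array. On the left, CTG(648) minus CTG(0) without Dox (x axis) and with Dox (y axis) shows 20 members past the threshold in both, all of them lower in CTG(648), and on the right the Dox effects in the CTG(648) line (x axis) and the CTG(0) line (y axis) show no member past it in both.

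TC0800007612, between BRIX1P1 and NPBWR1, showed the recurrence well. It read 6.22, 6.43 and 6.59 in Dox-induced CTG(648) cells, against 8.3, 7.82 and 7.77 in Dox-induced CTG(0) cells, a difference of -1.55 ± 0.21 (adjusted p = 0.0011). Between the non-induced lines it differed by -1.14 ± 0.21 (adjusted p = 0.00958). TC0800007024 differed by -1.33 in both comparisons, and the SLC25A37 gene after it by -1.87 with Dox (adjusted p = 0.000317). TC0800010306, between the pseudogenes VN1R46P and AFG3L2P1, differed by -1.57 ± 0.36 between the Dox-induced lines (adjusted p = 0.0345) and by -0.87 between the non-induced lines (adjusted p = 0.341).

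The 5 bright members that were higher between the Dox-induced lines were near 0 between the non-induced ones. TC0800008278, which precedes PLEKHF2, read 7.6, 7.01 and 6.54 in Dox-induced CTG(648) cells, against 5.65, 5.93 and 5.93 in Dox-induced CTG(0) cells. The groups did not overlap, and the difference was 1.21 ± 0.25 (adjusted p = 0.0203), while PLEKHF2, an endosomal phosphoinositide-binding protein, differed by -0.68 (adjusted p = 0.12). TC0800008760 differed by 0.87 ± 0.17 (adjusted p = 0.0147) and TC0800007636 by 0.77 ± 0.17 (adjusted p = 0.0305). TC0800009524 (0.8, adjusted p = 0.0721) and TC0800010091 (0.69, adjusted p = 0.0743) did not pass the adjusted limit, and their calls were lost in 3 and 4 of the 12 fits without 1 array, with values between 0.58 and 0.91. Between the non-induced lines the differences of the 5 lay between -0.01 and 0.15.

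Most of the lower members lay in the middle of the chromosome. The division at 20 and 110 Mb was drawn after the values had been seen and has no test. In the 268 bright members placed between 20 and 110 Mb, 24 were lower and 1 was higher between the non-induced lines, and 32 were lower and 3 higher between the Dox-induced lines. Of the 20 that were lower in both comparisons, 19 lay there. The 61 placed below 20 Mb had 0 lower and 0 higher by limma between the non-induced lines, and 4 lower and 1 higher between the Dox-induced lines. The 130 above 110 Mb had 2 lower and 7 higher between the non-induced lines, and 4 lower and 1 higher between the Dox-induced lines. Between 110 and 120 Mb, where the TRPS1 cluster lies, the median of 29 bright members was 0.42 between the non-induced lines and 0.12 between the Dox-induced lines, although 18 bright named probe sets there had medians of -0.23 and -0.12.

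**Figure D3:**
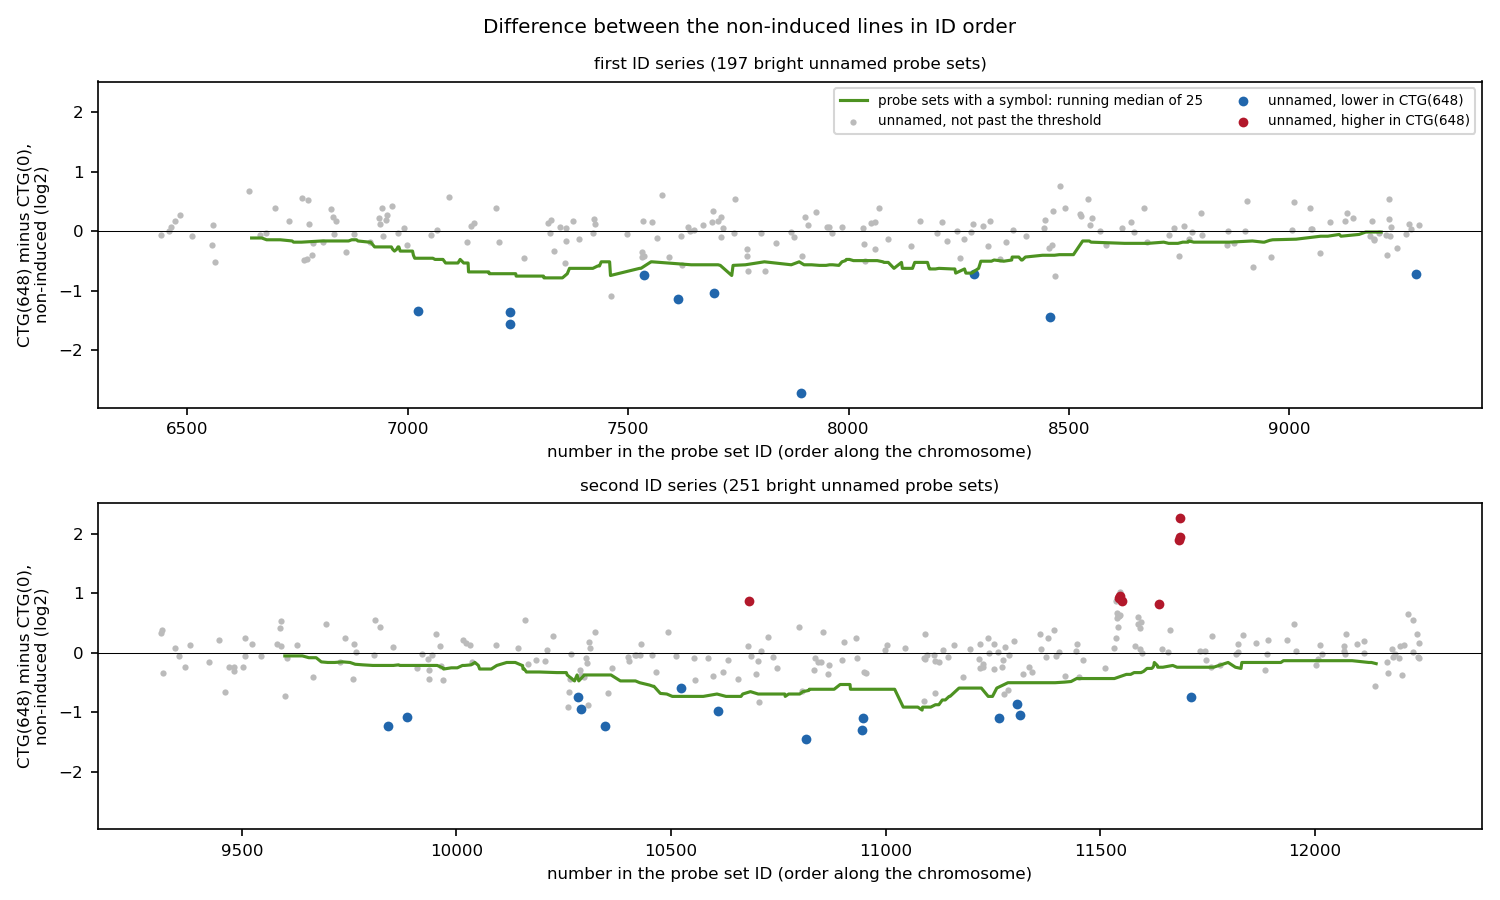
Log2 difference between the non-induced lines, CTG(648) minus CTG(0) (y axis), for bright members in the order of the number in their ID (x axis), for the first ID series of 197 bright members above and the second of 251 below. Blue points were lower and red points higher past the threshold, grey points did not pass, and the line is the running median of 25 neighbouring probe sets with a symbol, which dips below 0 along the middle of both series while most grey points stay near 0.

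In the same stretch 8.96% of the bright members and 45.1% of the bright named probe sets were lower without Dox. Between 20 and 110 Mb the bright members had a median difference of -0.07 between the non-induced lines and -0.16 between the Dox-induced lines, beside -0.54 and -0.46 for 308 bright probe sets with a symbol. Of those named probe sets 139 were lower and 11 higher without Dox. The gap was present within levels of brightness as well. Among members of mean 8 or more in that stretch 8.91% of 101 were lower without Dox, with a median of -0.05, against 52.2% of 232 named probe sets, with a median of -0.64. Among those of mean 6 to 8 it was 8.98% of 167 members, with a median of -0.08, and 23.7% of 76 named probe sets, with a median of -0.15. Probe sets of 1 array are not replicates, and no test was made of this contrast.

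The nearest bright named probe set in ID order was taken as each member's neighbour. Without Dox 13 of the 26 members called lower had a neighbour past the threshold and lower, against 140 of all 459 bright members with a neighbour. By sign alone the neighbour's difference was below 0 for 24 of the 26 called lower, for 2 of the 8 called higher that had a neighbour, and for 326 of the 459 (71.0%). Its median was -0.62 beside the lower members, 0.65 beside the higher ones and -0.32 beside all. With Dox 17 of the 40 members called lower had a neighbour past the threshold and lower, against 124 of 459. By sign alone it was below 0 for 35 of the 40 called lower, for 4 of the 5 called higher and for 360 of the 459 (78.4%), with medians of -0.53, -0.13 and -0.34. Across all 459 pairs the differences of a member and its neighbour had a Pearson correlation of 0.29 without Dox and 0.15 with it, over points that share their arrays and often a neighbour.

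Chromosome 8 stood first among 23 chromosomes for named probe sets but not for unnamed ones. Of its bright named probe sets 31.6% were lower in CTG(648) without Dox and 27.7% with it, the highest shares of any chromosome. Of its bright unnamed probe sets 5.59% were lower without Dox, behind chromosomes 21 and 14 at 6.67% and 5.65%, and 8.60% with it, behind chromosome 21 at 10.2%. The median of the bright members, -0.02 and -0.12, lay inside the range over all chromosomes, which ran from -0.04 to 0.11 without Dox and from -0.16 to 0.02 with it.

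**Figure D4:**
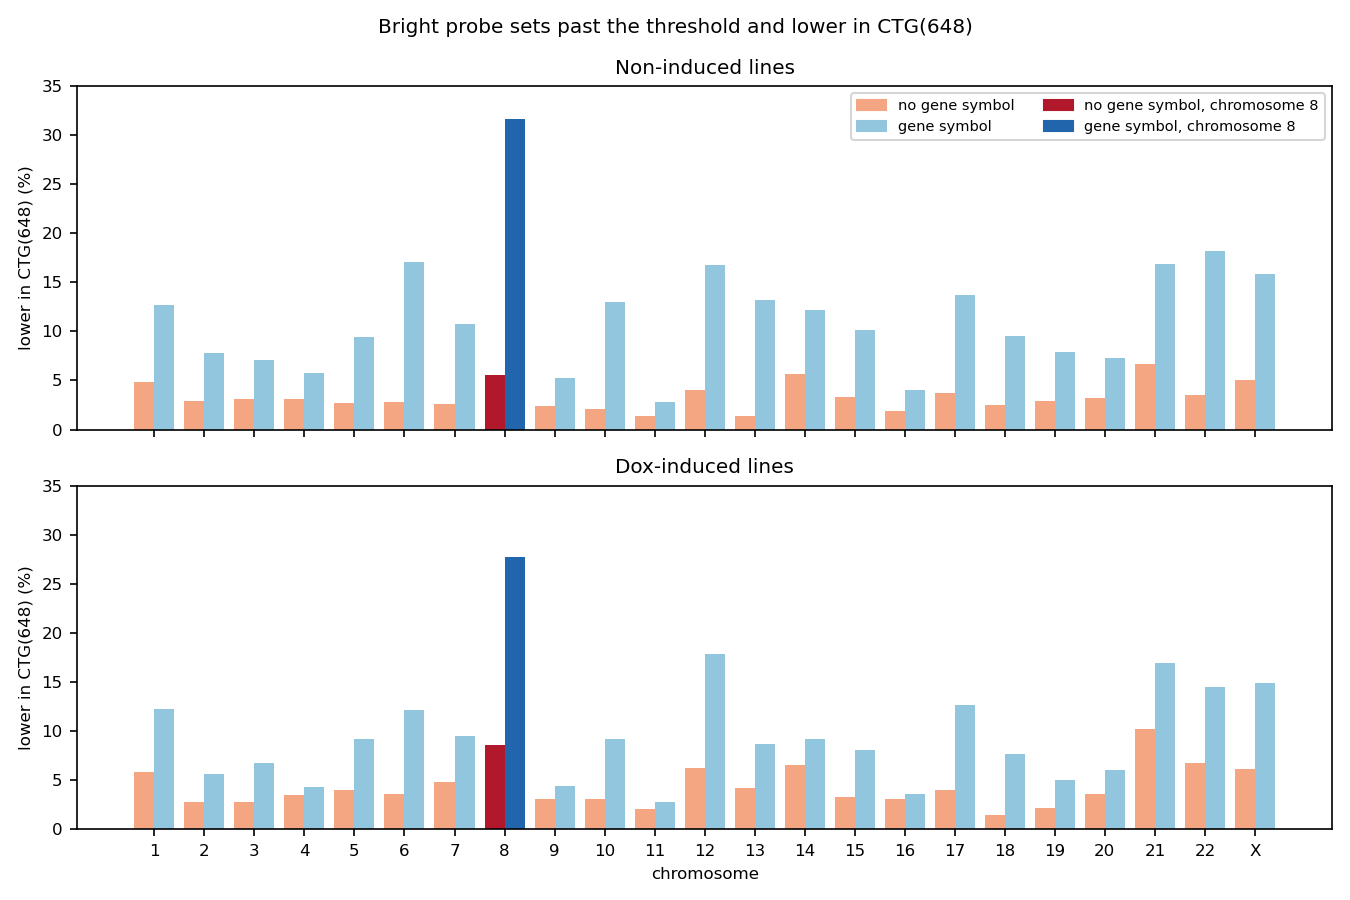
Share (%) of bright probe sets that passed the threshold and were lower in CTG(648) than in CTG(0) cells, by chromosome, for probe sets without a symbol (left bar of each pair) and with one (right bar), without Dox above and with Dox below. Chromosome 8, in dark colours, has the tallest bar for named probe sets, 31.6% and 27.7%, and an unnamed bar of 5.59% and 8.60%.

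The effect of Dox in cells with the expanded repeat was the study's main question. Between Dox-induced and non-induced CTG(648) cells 36 members passed, 14 higher and 22 lower, which is 0.795% against 1.15% of all probe sets (0.589% higher, 0.564% lower). The direction of this split depended on the scaling, since 29 were higher and 15 lower with arrays centred on the bright unnamed probe sets. Of the bright members 3 passed, all lower, which is 0.645% against 1.35% of all bright unnamed probe sets (0.422% higher, 0.924% lower). None had an adjusted p under 0.05 by limma, which 0.113% of all probe sets and 0.0876% of the bright unnamed ones had. An unadjusted limma p under 0.05 was reached by 36 of the 465 (7.74%), beside 7.28% of all probe sets and 7.75% of the bright unnamed ones. The methods' unpaired t-test, run here at the same threshold, called 4 bright members, beside 810 of all 135750 probe sets and 76 of the 12555 bright unnamed ones. The bright count was 6 without replicate 1 of the non-induced CTG(648) cells or replicate 3 of the non-induced CTG(0) cells, 5 without replicate 3 of the Dox-induced CTG(648) cells, and 2 without replicate 1 of the Dox-induced CTG(648) cells or replicate 3 of the non-induced CTG(648) cells. Their median was -0.09, the same as for all bright unnamed probe sets. It moved with single arrays, since the median deviation of the bright members was -0.18 in replicate 1 of the Dox-induced CTG(648) cells and 0.08 in replicate 1 of the non-induced ones, and -0.16 and 0.11 for bright unnamed probe sets of the other chromosomes.

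The 3 bright members that fell were TC0800010932 and the neighbours TC0800008033 and TC0800008034. TC0800010932, between PAG1, the gene of an adaptor protein of lipid rafts, and PMP2, read 6.87, 7.29 and 6.54 in Dox-induced CTG(648) cells, against 8.17, 8.25 and 7.91 in non-induced CTG(648) cells. The groups did not overlap, and the Dox effect was -1.21 ± 0.25 (limma, adjusted p = 0.131). In CTG(0) cells it read 7.43, 7.88 and 8.2 with Dox, against 8.04, 7.53 and 8.02 without, an effect of -0.03 ± 0.25.

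The other pair lay between ZC2HC1A (start 78666089) and STMN2 (start 79611117), the gene of a neuronal microtubule-destabilising protein. TC0800008034 read 5.16, 5.43 and 5.02 in Dox-induced CTG(648) cells, against 6.27, 5.79 and 6.35 in non-induced CTG(648) cells, an effect of -0.93 ± 0.25 (adjusted p = 0.336). TC0800008033 read 5.44, 5.56 and 5.95 in Dox-induced CTG(648) cells, against 6.87, 6.14 and 6.6 in non-induced CTG(648) cells, an effect of -0.89 ± 0.24 (adjusted p = 0.348). Both sets of groups were apart, but each call was lost in 4 of the 12 fits without 1 array, with effects between -1.11 and -0.72. The flanking genes did not move with them, as the Dox effect of ZC2HC1A was 0.16 (adjusted p = 0.907) and that of STMN2, which averaged 3.8, was -0.22 (adjusted p = 0.901). Between the Dox-induced lines the pair differed by -1.62 ± 0.25 (adjusted p = 0.00236) and -1.11 ± 0.24 (adjusted p = 0.0221), a comparison that shares the Dox-induced CTG(648) arrays.

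The same comparison in cells without the repeat gives the effect of Dox and of the minigene RNA without repeats. Between Dox-induced and non-induced CTG(0) cells 39 members passed, 21 higher and 18 lower, which is 0.861% against 0.838% of all probe sets (0.466% higher, 0.371% lower). With arrays centred on their medians 14 were higher and 20 lower. Of the bright members 4 passed, 3 higher and 1 lower, which is 0.86% against 0.964% of all bright unnamed probe sets (0.422% higher, 0.542% lower). None passed the adjusted limit by limma. An unadjusted limma p under 0.05 was reached by 39 (8.39%), beside 6.82% of all probe sets and 7.6% of the bright unnamed ones. The methods' t-test called 4, beside 499 of all 135750 probe sets and 66 of the 12555 bright unnamed ones. The bright count was 2 without replicate 1 of the non-induced CTG(0) cells and 6 without replicate 3 of either CTG(0) group. The lower one was TC0800007893 again, whose CTG(0) values are given above, with an effect of -1.35 ± 0.2 (limma, adjusted p = 0.21). Its effect in CTG(648) cells was -0.48 ± 0.2. TC0800011252, between RNF19A and ANKRD46, read 7.1, 6.74 and 7.83 in Dox-induced CTG(0) cells, against 5.86, 6.58 and 6.05 in non-induced CTG(0) cells, an effect of 1.06 ± 0.3 (adjusted p = 0.585) that was called in 6 of the 12 fits without 1 array, where it lay between 0.76 and 1.3. Its effect in CTG(648) cells was 0.89 ± 0.3. TC0800007319, between EIF4EBP1, a repressor of translation initiation, and ASH2L, differed by 0.8 ± 0.19 and TC0800007052 by 0.71 ± 0.21 (adjusted p = 0.573 and 0.594). Their calls were lost in 2 and 9 of the 12 fits, with values between 0.55 and 0.9. Over the 465 bright members the Dox effects in the 2 lines, which share no array, had a Pearson correlation of 0.01.

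The difference between the lines in the Dox effect was tested as an interaction. It passed for 36 members, 12 higher and 24 lower in CTG(648), which is 0.795% against 1.02% of all probe sets (0.424% higher, 0.593% lower). Centred on the bright unnamed probe sets, 22 were higher and 14 lower. Of the bright members 7 passed, 1 higher and 6 lower, which is 1.51% against 1.12% of all bright unnamed probe sets (0.319% higher, 0.796% lower). None of them passed the adjusted limit by limma, which 0.0368% of all probe sets and 0.0239% of the bright unnamed ones did. An unadjusted limma p under 0.05 was reached by 39 bright members (8.39%), beside 7.02% of all probe sets and 7.5% of the bright unnamed ones. The bright count was 4 or fewer in 9 of the 12 fits without 1 array, with 2 without replicate 1 of the Dox-induced CTG(648) cells, and 8 or more in the other 3 fits. TC0800008034 had the firmest of these differences, -1.41 ± 0.35 (limma, adjusted p = 0.343), and kept its call in all 12 fits without 1 array.

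Of the 465 bright members 62 passed the threshold in at least 1 of the 5 comparisons and 403 in none, and 293 (63.0%) had all 4 pairwise differences under 0.5 in size. Of all 4529 members 4321 passed in none.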

How the data were processed

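Total RNA of 12 MIO-M1 cultures was hybridised to Clariom D Human arrays. Per the labels and the study's methods, the authors corrected the background by RMA, quantile-normalised the arrays and deposited log2 signals, 1 per probe set. The submitters' notes name RMA and hg38, and the sources used here give no tool versions. Quantile normalisation gives all arrays nearly the same distribution, so a change shared by most transcripts would be removed. Depth does not apply to arrays, and 3 arrays a group limit the precision.

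Symbols came from GEO's platform annotation: 36176 probe sets had 1, 1119 several and 98455 none. RefSeq gene positions (GRCh38.p14) of TC08 probe sets with 1 symbol placed the members by ID order, and 2 out of order were left out of 1314. No sequence was printed. limma 3.58.1 (R 4.3.3) fitted the 4 group means to all 135750 probe sets, with a moderated test (8 residual and 5.43 prior degrees of freedom). Past the threshold means an unadjusted p under 0.005 together with a log2 difference larger than 0.5 either way, and adjusted p are Benjamini-Hochberg values over all probe sets. The fit was tested on simulated data. Errors are SE of the fitted difference unless called SD.

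Members were named by rule: among bright members past the threshold whose groups do not overlap, the 8 highest and 8 lowest between the non-induced lines, 5 and 5 for Dox in CTG(648), the Dox-induced lines and the interaction, and 3 and 3 for Dox in CTG(0). The 5 brightest, the 2 nearest to the limit of 6 on each side, the 3 highest and 3 lowest dim members with a group mean of 6, and runs of at least 3 consecutive members called in 1 direction were added, with flanking genes as neighbours. Alternatives were the adjusted p, a larger fold, a variance trend, array weights, a replicate block, 2 further scalings, a filter on dim probe sets, 2-group fits, the methods' t-test and each array left out. The members and lists were chosen with earlier results of these data known.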

Additional observations from a re-analysis of the deposited data

Results flagged for a closer look

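The Dox effect differed between the lines, by the interaction term at an unadjusted p under 0.005, for 6 bright members named by rule, and none reached an adjusted p under 0.05. Each value is the Dox effect in CTG(648) cells minus that in CTG(0) cells. TC0800008034 differed by -1.41 (adjusted p = 0.343), with effects of -0.93 in CTG(648) cells and 0.48 in CTG(0) cells, and its neighbour TC0800008033 by -1.17 (adjusted p = 0.455), with -0.89 and 0.29. TC0800011685, in the run beside FBXO32, differed by -1.41 (adjusted p = 0.469), with -0.65 and 0.76. FBXO32 itself had effects of -0.58 in CTG(648) cells and 0.26 in CTG(0) cells, a difference of -0.84 (adjusted p = 0.415). TC0800010932 differed by -1.18 (adjusted p = 0.482), with -1.21 and -0.03, and TC0800007319 by -0.96 (adjusted p = 0.455), with -0.16 and 0.8. TC0800008278 differed by 1.22 (adjusted p = 0.478), with 0.63 and -0.59. Except for TC0800008034, each of these calls was lost in 8 to 10 of the 12 fits that left out 1 array, over which the 5 differences of negative members lay between -1.66 and -0.82 and that of TC0800008278 between 0.95 and 1.48. Groups of 3 arrays were not searched for outlying arrays.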

How the results depend on the processing

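None of the 47 named results changed direction under any alternative, while the median of the bright members between the non-induced lines lay on either side of 0. Most were named for pairwise groups that do not overlap, and leaving out 1 array cannot reverse such a difference. Alternatives that change only the limit or the test keep the same fitted difference. An unchanged direction thus adds no support to those results. The counts of members past the threshold moved by over 1.5 times in these cases. With an adjusted p under 0.05 by limma they were 36 of 79 between the non-induced lines, 57 of 109 between the Dox-induced lines, 2 of 36 for Dox in CTG(648), 0 of 39 for Dox in CTG(0) and 1 of 36 for the interaction. For Dox in CTG(0) an unadjusted limma p under 0.05 was reached by 319 members (7.04%), beside 6.82% of all probe sets. The methods' t-test called 13 members there, beside 499 of all 135750 probe sets. With a log2 difference above 1 the counts past the threshold were 42, 51, 15 and 8 for the first 4. By the methods' t-test they were 29, 39, 19 and 13. With probe sets below a group mean of 5 removed, which tests fewer members, they were 20 for Dox in CTG(648), 18 for Dox in CTG(0) and 20 for the interaction.

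Without 1 array the counts ran from 60 to 84 between the non-induced lines, from 83 to 118 between the Dox-induced lines, from 29 to 45 for Dox in CTG(648), from 28 to 45 for Dox in CTG(0) and from 28 to 41 for the interaction. The medians of the bright members ran from -0.06 to 0.02 without Dox and from -0.16 to -0.09 with it. Centring each array on the bright unnamed probe sets, a choice made after seeing the data, gave a median of -0.04 between the Dox-induced lines instead of -0.12. It also turned the split of calls for Dox in CTG(648), with 65.9% of members higher instead of 38.9%, and for the interaction, with 61.1% instead of 33.3%. Calls stayed mostly lower between the non-induced lines, with 23.3% higher instead of 35.4%, and between the Dox-induced lines, with 43.0% instead of 25.7%. For Dox in CTG(0), 53.8% were higher, and 42.4% after a further quantile normalisation, 41.2% with arrays centred on their medians. For the interaction these scalings gave 47.4% and 45.9%.

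Same-numbered arrays did not vary together, with correlations of their deviations from -0.0909 to 0.0521, so they share only a number. With the replicate block 71, 103, 39, 38 and 35 members passed in the order non-induced lines, Dox-induced lines, Dox in CTG(648), Dox in CTG(0) and interaction. Of the 47 named results, the block lost 10 and the methods' t-test 27 of 41. Members of mean 6 to 8 had a median SD of 0.32 within groups, so 3 arrays a group leave differences near 0.5 hard to tell from that spread.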
